A study of Mus musculus with 27 samples.

Results

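The comparison set 6 thymus libraries from mice carrying AKT(E17K) against 6 from mice without it, out of 27 libraries in the series. AKT(E17K) is a form of the kinase AKT1 with a single amino acid change in its lipid-binding domain that keeps it at the membrane and active. All 12 libraries came from thymus of C57BL/6 mice after bone marrow transplantation, and RNA was sequenced and counted per gene. The 6 AKT(E17K) libraries were 3 mice labelled AKT(E17K) (mice m121, m122 and m124) and 3 labelled TAL1 + AKT(E17K) (mice m116, m117 and m119). The 6 others were 3 mice labelled empty vector (mice M311, M312 and M315) and 3 labelled TAL1 overexpression (mice M317, M318 and M319). TAL1 is a transcription factor that is often switched on in T cell acute lymphoblastic leukaemia, and each of the 2 arms therefore held 3 mice with and 3 without the TAL1 label. The AKT(E17K) mice stood in 1 count table and the other mice in another, with mouse numbers that do not overlap. AKT(E17K) therefore cannot be told apart from anything else that differed between the tables, such as the experiment, the state of disease or the way reads were counted. Not given in the sources used here were the ages of the mice, the promoter driving each transgene, the share of cells carrying it and the disease stage. Whole thymus was counted, so fewer cells of a type and less RNA per cell cannot be told apart.

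AKT is the central kinase of the phosphoinositide 3-kinase (PI3K) pathway. Active AKT phosphorylates the FOXO transcription factors, which then leave the nucleus, and it raises mTOR complex 1 activity, which feeds glucose use, lipid synthesis and ribosome production. In thymocytes FOXO factors drive genes of quiescence and of exit from the thymus, such as Klf2, S1pr1, Ccr7 and Il7r. Early thymocytes depend on NOTCH1 signalling, pass through a stage with both CD4 and CD8, and mature into cells with 1 of them. PI3K activation and NOTCH1 mutations are both frequent in T cell acute lymphoblastic leukaemia.

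Depth was 2073752 to 3661056 counts per library in the AKT(E17K) arms and 3893990 to 11302098 in the others. There were 22906 symbols in the AKT(E17K) table and 46078 identifiers in the other, and the 22729 symbols unique in both were joined. The joined genes held 99.2% to 99.3% of counts in the AKT(E17K) libraries and 82.2% to 83.2% in the others, and 10947 of them passed the filter on low counts. Fold changes between the tables also moved with exon overlap. Each gene's exons were compared with those of other genes in GENCODE M21 (GRCm38), from which all gene positions below are taken. The median log2 fold change (AKT(E17K) arms over the others) was -0.16 over the 6408 protein-coding genes with no exon overlap and -0.01 over 2604 genes overlapping by up to 10%. It was 0.77 over 1498 genes overlapping by 10% to 50% and 3.83 over 265 genes overlapping by more than 50%. Genes with large overlap were thus called higher far more often, 82.3% of the last class against 5.66% called lower, and higher values of such genes are uncertain. Counts for genes with no exon overlap are therefore given beside the gene groups, cell type markers aside, from a fit on those genes alone. That fit called 1924 of its 6408 genes higher and 1923 lower. Among genes with no exon overlap the median also moved with the length of a gene's longest transcript. It went from 0.20 over the shortest genes to -0.18 and -0.42 over the middle and longest genes of 3 equal groups. The part of overlap and length in single results was not tested.

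**Figure D1:**
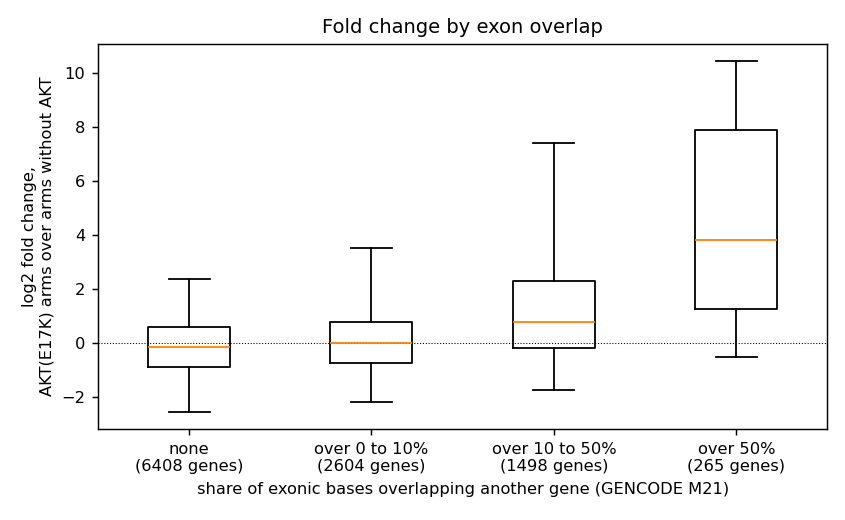
Log2 fold change of AKT(E17K) arms over the arms without it, on the vertical axis, for genes grouped by the share of their exon bases that overlap another gene. Boxes span the quartiles, lines inside them are medians and whiskers reach the 5th and 95th percentiles; the median lies at -0.16 with no overlap and at 3.83 above 50% overlap.

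The labels were checked on the targeted genes. Akt1 (ENSMUSG00000001729, chromosome 12, 112653821 to 112674884) is the mouse gene for the kinase itself. Levels are given in CPM, counts scaled to a library of 1000000 by the TMM method. Akt1 was at 97.8, 112 and 48.3 in AKT(E17K) mice and 95.7, 89.9 and 95.4 in TAL1 + AKT(E17K) mice. It was at 129, 158 and 169.8 in empty-vector mice and 136, 143 and 176 in TAL1 mice, so all 6 AKT(E17K) libraries lay below all 6 others. The log2 fold change was -0.77 ± 0.18 (SE; edgeR quasi-likelihood test, Benjamini-Hochberg adjusted p = 0.00182, n = 6 and 6). Whether transgene reads count toward this gene was not given in the sources used here, so Akt1 does not check the label. Tal1 had 7 counts in mouse m121 and 0 in every other library, the TAL1-labelled ones included, so it does not check that label either. Cd3d, a chain of the T cell receptor complex, lay at 557 to 786 CPM with AKT(E17K) and 534 to 677 CPM without, so all 12 libraries held T lineage RNA. Cd3g, another chain, lay lower with AKT(E17K), at 62.7 to 104 CPM against 214 to 308 CPM. The share of T lineage cells can therefore not be read from 1 chain.

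The 2 arms differed widely. With an adjusted p under 0.05, 6942 of 10947 genes (63.4%) were called, 3591 higher (32.8%) and 3351 lower (30.6%) with AKT(E17K). Of these, 2343 were higher and 1938 lower by at least 1 on the log2 scale. A total of 2232 genes (20.4%) lay higher in every AKT(E17K) library than in every other library, and 2095 (19.1%) lay lower, so that 39.5% did not overlap. Among the genes with no exon overlap these shares were 13.3% and 21.9% with the scaling taken from all genes. In the fit on those genes alone, 1057 of 6408 lay higher without overlap and 1180 lower, so the tilt depended on the scaling. Scaling by library size alone shifted the median over all genes from 0.01 to -0.26 and turned the split of called genes to 2828 higher and 4322 lower. The first principal component, which held 70.9% of the variance, separated the arms, and mouse m121 stood apart on the second, which held 6.98%.

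The same question was asked within each TAL1 label. AKT(E17K) against empty vector called 5957 genes (54.4%; 28.7% higher, 25.7% lower). TAL1 + AKT(E17K) against TAL1 called 4892 (44.7%; 24.0% higher, 20.7% lower). These use different mice on both sides. They shared 2279 higher genes, which is 72.6% of the first and 86.7% of the second, and 1849 lower genes, 65.6% and 81.7%. They called 10 genes in opposite directions. Both comparisons run across the same 2 tables, so any offset between the tables is in both.

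**Figure D2:**
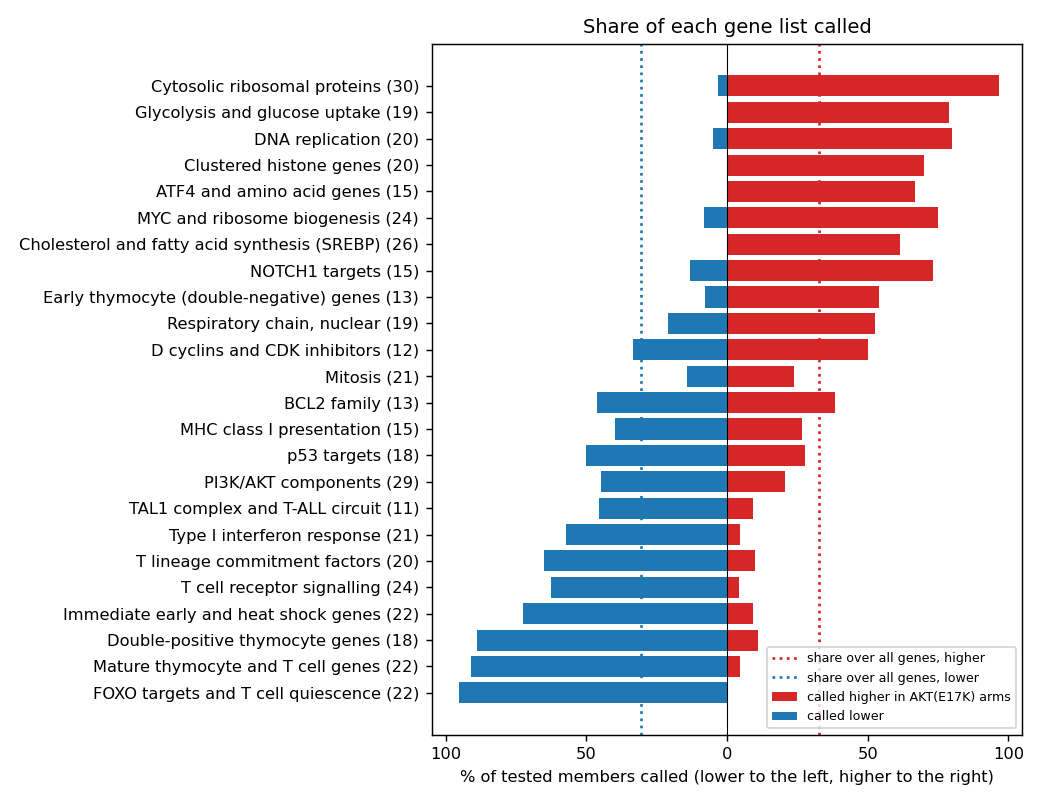
Share of the tested members of each gene group called higher and called lower in the AKT(E17K) arms, for the 24 groups with at least 10 tested members, cell type markers aside. Dotted lines mark the shares over all genes, 32.8% higher and 30.6% lower.

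The genes that FOXO factors switch on, and other genes of T cell quiescence, were lower with AKT(E17K) almost throughout. Of 22 such genes, all tested, 21 were lower and none higher, with a median log2 fold change of -2.10 against 0.01 over all genes. Libraries did not overlap for 19 of the 21. On genes with no exon overlap, 16 of 17 were lower, with a median of -2.42. The 3 tested FOXO factors themselves were not called, with log2 fold changes of -0.52 ± 0.26 for Foxo1, -0.05 ± 0.14 for Foxo3 and 0.10 ± 0.15 for Foxo4.

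Promoter sequence was read for these genes because FOXO factors bind a short core element. The letters GTAAACA, on either strand, were searched from 250 bases before to 50 bases after the RefSeq start site on GRCm38.p6. Of the 17 listed genes with a promoter in that table, 4 held the letters (23.5%), as did 256 of 8364 tested genes with a promoter (3.06%) and 1199 of all 32851 windows (3.65%). A match describes the letters in this window and is not a measured site. The 3 genes with the match before the start site are shown over the 250 bases before it, plus strand, with the match or its reverse complement in capitals. They are Txnip at chr3:96557707-96557956 (match starting at -121 from the start site), Btg1 at chr10:96616751-96617000 (-204) and Bcl2l11 at chr2:128125788-128126037 (-227).
Txnip: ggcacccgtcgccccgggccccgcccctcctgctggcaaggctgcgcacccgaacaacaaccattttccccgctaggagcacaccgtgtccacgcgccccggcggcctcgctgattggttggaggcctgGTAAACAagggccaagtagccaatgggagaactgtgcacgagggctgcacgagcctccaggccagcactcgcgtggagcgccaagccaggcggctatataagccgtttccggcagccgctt
Btg1: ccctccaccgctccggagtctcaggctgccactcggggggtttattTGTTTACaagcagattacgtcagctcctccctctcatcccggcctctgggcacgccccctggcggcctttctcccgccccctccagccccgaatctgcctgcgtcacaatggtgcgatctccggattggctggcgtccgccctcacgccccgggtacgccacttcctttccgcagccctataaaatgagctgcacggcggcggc
Bcl2l11: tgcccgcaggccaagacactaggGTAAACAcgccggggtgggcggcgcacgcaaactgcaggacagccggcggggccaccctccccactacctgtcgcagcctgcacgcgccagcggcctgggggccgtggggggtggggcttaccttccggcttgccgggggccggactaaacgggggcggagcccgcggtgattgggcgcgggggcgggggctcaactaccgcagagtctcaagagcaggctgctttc
Sesn1 held the fourth match, at 22 bases past its start site.

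Txnip, whose promoter is shown above, encodes a protein that restrains glucose uptake. It was at 16.6, 17.3 and 14.5 CPM in AKT(E17K) mice, 9.33, 28.1 and 11.9 in TAL1 + AKT(E17K) mice, 392, 479 and 392 in empty-vector mice and 347, 269.7 and 322 in TAL1 mice. Every library with AKT(E17K) lay far below every library without it, and the log2 fold change was -4.47 ± 0.23 (edgeR, adjusted p = 2.18e-09). Txnip has an exon overlap of 19.4%. The other genes with the match changed less. Btg1, an inhibitor of proliferation, had a log2 fold change of -1.41 ± 0.25 with overlapping groups (142 to 458 against 384 to 852 CPM). Bcl2l11, which encodes the death protein BIM, had -0.70 ± 0.18 with overlapping groups, and the stress gene Sesn1 had -1.47 ± 0.16 with none.

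The genes of thymic exit and homing were among the lowest. S1pr1, the sphingosine phosphate receptor that lets thymocytes leave, lay at 0 to 2.56 CPM (median 0.353) against 3.11 to 89.7 CPM (median 49.2). Ccr7, a chemokine receptor of mature thymocytes, was at 0.706, 0 and 1.71 CPM in AKT(E17K) mice and 0.778, 1.17 and 0 in TAL1 + AKT(E17K) mice. It was at 72.0, 93.6 and 94.3 in empty-vector mice and 9.21, 7.70 and 28.5 in TAL1 mice, so the TAL1 mice lay between the empty-vector mice and the AKT(E17K) arms. Both were close to the counting floor with AKT(E17K), and neither overlapped between the arms. Il7r, the receptor chain for the survival cytokine interleukin-7, lay at 1.73 to 23.3 CPM (median 12.7) against 33.4 to 162 CPM (median 82.4).

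Klf2, the transcription factor that switches on S1pr1, was lower in both comparisons but not equally. It was at 6.00, 5.19 and 6.26 CPM in AKT(E17K) mice against 187, 132 and 157 in empty-vector mice, a log2 difference of -4.75 ± 0.33. It was at 24.5, 14.9 and 12.4 CPM in TAL1 + AKT(E17K) mice against 45.7, 25.2 and 45.7 in TAL1 mice, a log2 difference of -1.16 ± 0.29. The groups did not overlap in either comparison, and the highest AKT(E17K)-arm library, at 24.5 CPM, lay just below the lowest TAL1 library.

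Brakes on the cell cycle within the same group were lower too. Cdkn1b, encoding the cyclin-dependent kinase inhibitor p27, was at 23.7, 61.7 and 43.2 CPM in AKT(E17K) mice and 75.1, 108 and 70.0 in TAL1 + AKT(E17K) mice. It was at 372, 452 and 465 in empty-vector mice and 469, 411 and 414 in TAL1 mice, and the log2 fold change was -2.85 ± 0.20 (edgeR, adjusted p = 4.27e-08). Ccng2, an atypical cyclin tied to arrest, lay at 2.12 to 9.10 CPM (median 6.93) against 85.3 to 163 CPM (median 114). Klf6, a stress-responsive factor, lay at 22.8 to 42.0 CPM (median 26.9) against 184 to 443 CPM (median 321), and Cdkn2d, encoding the inhibitor p19, at 11.7 to 71.5 CPM (median 42.3) against 114 to 187 CPM (median 153). None of these overlapped between the arms. Sesn3, a sestrin that restrains mTOR complex 1, was the 1 member not called, with -0.36 ± 0.18 (adjusted p = 0.105).

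**Figure D3:**
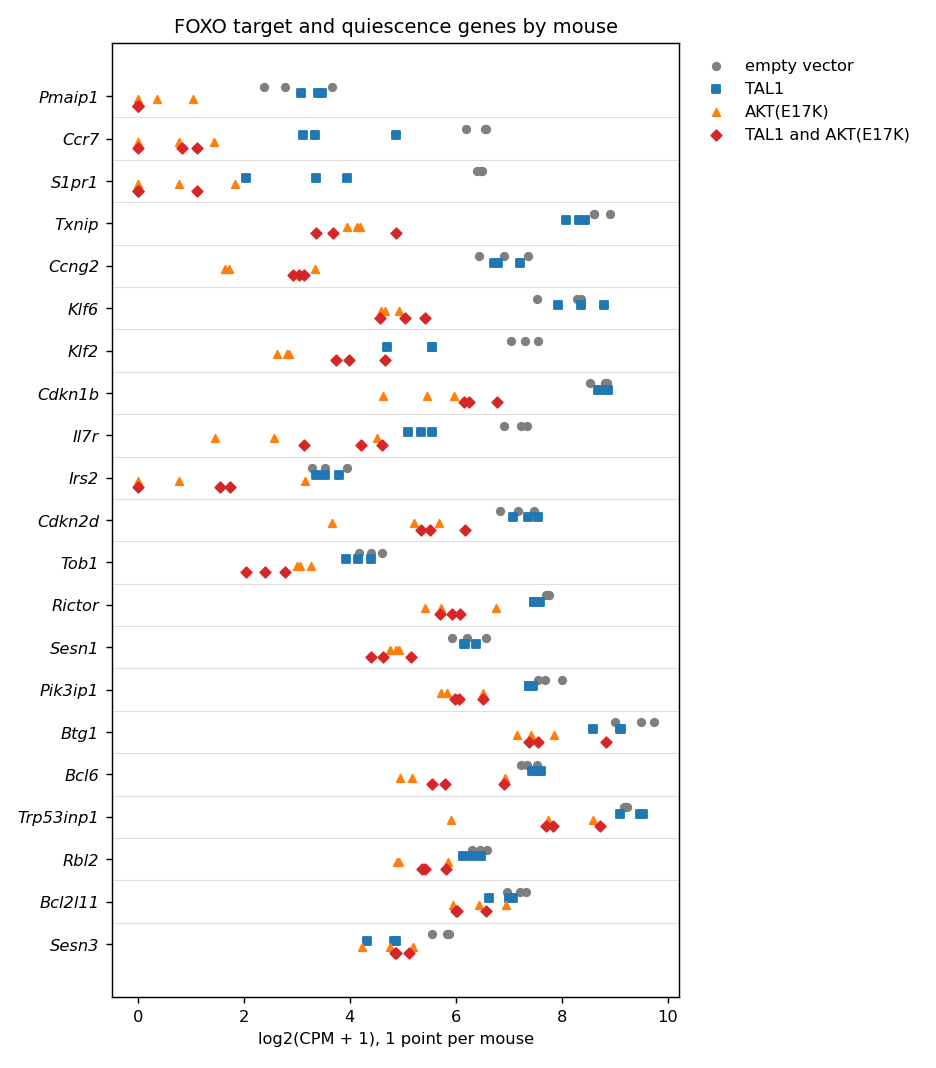
Level of FOXO target and quiescence genes in each library, as log2(CPM + 1) on the horizontal axis, with 1 point per mouse and groups told apart by colour and marker. Most genes lie lower in libraries with AKT(E17K), while Btg1, Bcl2l11 and Sesn3 overlap; Txnip spans 9.33 to 28.1 CPM with AKT(E17K) and 269.7 to 479 CPM without.

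Components of the PI3K and AKT pathway moved in both directions. Of 29 tested, 6 were higher and 13 lower, with a median of -0.34, against 32.8% higher and 30.6% lower over all genes. On genes with no exon overlap 12 of 19 were lower and 1, Akt2, was higher (median -0.74). The lower members included kinase subunits and a lipid phosphatase. Inpp4b, a phosphatase that removes a PI3K product, had 9 counts in all 6 AKT(E17K) libraries together and 3324 in the others. Its level was at most 1.14 CPM with AKT(E17K) and 26.9 to 191 CPM without. Pik3cd, the catalytic subunit p110 delta that dominates in lymphocytes, lay at 5.19 to 27.2 CPM (median 16.0) against 110.2 to 274 CPM (median 185). Pik3ca, the catalytic subunit p110 alpha, lay at 65.3 to 93.0 CPM (median 81.4) against 197 to 247 CPM (median 222). Rictor, the scaffold of mTOR complex 2, which phosphorylates AKT, had a log2 fold change of -1.63 ± 0.19, and Pdpk1, encoding the kinase PDK1 upstream of AKT, had -1.20 ± 0.13. Each of these 5 genes separated the arms without overlap.

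Several pathway genes did not pass the test. Akt2 had a log2 fold change of 0.40 ± 0.20 (edgeR, adjusted p = 0.0896) in the fit on all genes, Mtor had -0.19 ± 0.15, and Tsc1, part of the brake on mTOR complex 1, had -0.25 ± 0.14. The higher members were Tsc2 (log2 fold change 2.32 ± 0.15), Inppl1, Pik3r3, Gsk3a, Mlst8 and Pik3r2. All 6 overlap other genes' exons, by 1.1% for Pik3r2 up to 28.3% for Gsk3a, and are uncertain.

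Genes of glucose use were higher. Of 19 tested, 15 were higher and none lower, with a median of 1.58, and on genes with no exon overlap 8 of 10 were higher. Ldha, the lactate dehydrogenase subunit that ends glycolysis, was at 917, 778 and 458 CPM in AKT(E17K) mice and 546, 351 and 556 in TAL1 + AKT(E17K) mice. It was at 133, 165 and 149.9 in empty-vector mice and 169.6, 208 and 186 in TAL1 mice, with no overlap and a log2 fold change of 1.82 ± 0.18 (edgeR, adjusted p = 9.55e-07). Hk2, the hexokinase that AKT is known to hold at mitochondria, lay at 26.2 to 96.1 CPM (median 42.9) against 9.73 to 24.4 CPM (median 13.4). Pfkl, a phosphofructokinase subunit, lay at 34.7 to 178 CPM (median 84.5) against 14.7 to 21.4 CPM (median 19.1), and Slc16a3, the lactate exporter, at 13.8 to 103 CPM (median 41.2) against 1.09 to 4.21 CPM (median 1.52). Aldoa (log2 fold change 2.31 ± 0.18) and Eno1 (1.53 ± 0.15), of the middle and later steps, were likewise higher with no overlap. The glucose transporters were not called. Slc2a1 had -0.52 ± 0.34 (adjusted p = 0.203) and Slc2a3 had -0.73 ± 0.32 (adjusted p = 0.0606). Gapdh and several other members have near-identical copies elsewhere in the genome, so their counts are uncertain.

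Lipid synthesis genes under the SREBP factors were higher in part. Of 26, 16 were higher and none lower, with a median of 0.68, and on genes with no exon overlap 13 of 17 were higher. In the fatty acid branch the arms did not overlap for Fasn and Acaca. Fasn, fatty acid synthase, lay at 164 to 307 CPM (median 229) against 64.2 to 88.4 CPM (median 73.1), and Acaca, the acetyl-CoA carboxylase before it, at 64.3 to 107 CPM (median 83.8) against 16.1 to 42.3 CPM (median 26.2). Their log2 fold changes were 1.62 ± 0.16 and 1.57 ± 0.21. In the cholesterol branch Mvd, an enzyme of the mevalonate route, had 1.37 ± 0.19 with no overlap, and Sqle, squalene epoxidase, had 1.07 ± 0.23 with overlap. Hmgcs1, the synthase at the start of the route, had 0.38 ± 0.26 (adjusted p = 0.22) and was not called.

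ATF4, a stress-responsive factor that mTOR complex 1 also raises, switches on amino acid synthesis and one-carbon genes. Of 15 such genes tested, 10 were higher and none lower (median 1.06, and 7 of 11 on genes with no exon overlap). Phgdh, the first enzyme of serine synthesis, lay at 42.6 to 146 CPM (median 77.2) against 11.0 to 22.4 CPM (median 15.9). Shmt2, the mitochondrial serine hydroxymethyltransferase, lay at 96.9 to 387 CPM (median 196) against 25.8 to 47.8 CPM (median 40.1). Atf4 itself had a log2 fold change of 1.03 ± 0.17 with no overlap. Slc7a11, the cystine transporter, went the other way without passing the test, at -1.49 ± 0.64 (edgeR, adjusted p = 0.0548).

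Ribosome production genes were higher. Of 24 genes of MYC and ribosome biogenesis, 18 were higher and 2 lower, with a median of 1.54, and on genes with no exon overlap 9 of 11 were higher. Odc1, the first enzyme of polyamine synthesis, lay at 36.7 to 165 CPM (median 79.6) against 6.40 to 13.2 CPM (median 8.48). Fbl, the methyltransferase of ribosomal RNA, lay at 277 to 623 CPM (median 388) against 64.0 to 94.3 CPM (median 77.7), and Npm1, a nucleolar chaperone, at 1493 to 3844 CPM (median 2524) against 449 to 666 CPM (median 503). Myc itself was not called, with -0.31 ± 0.33 (adjusted p = 0.423), at 7.39 to 30.7 against 12.7 to 33.0 CPM. The 2 lower genes were Max, the partner of MYC (-0.48 ± 0.13), and Mxi1, its antagonist (-0.84 ± 0.24).

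Of 30 cytosolic ribosomal protein genes, 29 were higher and 1, Rps2, was lower. Their median was 2.10, and all 15 with no exon overlap were higher. Rplp0, of the ribosomal stalk, lay at 2906 to 5470.5 CPM (median 3817) against 636 to 809 CPM (median 728), while Rps19 had 0.69 ± 0.21 and Rps2 -1.47 ± 0.21. Such short genes have many processed copies in the genome, and how reads with several matches were handled was not given in the sources used here, so these values are uncertain. Of 19 nuclear genes of the respiratory chain, 10 were higher and 4 (Ndufa1, Ndufa4, Sdhc and Uqcrfs1) lower (median 0.44, and 6 higher and 3 lower of 11 on genes with no exon overlap). Over all genes 32.8% were higher and 30.6% lower, so the lower count was below that share. Ndufa4 (adjusted p = 0.0367) lost its call in several alternatives, with an adjusted p of 0.0888 in the fit with no TAL1 term. Cycs, cytochrome c, had 4.17 ± 0.24 and Ndufb8 1.89 ± 0.12, and both were higher with no overlap. Ndufa1 had -3.18 ± 0.20 and Sdhc -1.94 ± 0.19, and both were lower with no overlap, so the chain did not move as 1 group.

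Most replication genes were higher, and most mitotic genes were not called. Of 20 genes of DNA replication, 16 were higher and 1 lower (median 0.85, and 10 of 14 on genes with no exon overlap). Pcna, the sliding clamp, lay at 147 to 447 CPM (median 253) against 80.9 to 177 CPM (median 103), and Tyms, thymidylate synthase, at 101 to 188 CPM (median 158) against 52.9 to 120.1 CPM (median 87.4). Both overlapped between the arms. Mcm4, a helicase subunit, was the lower one, at -1.0 ± 0.12. Against empty vector 17 of the 20 were higher with AKT(E17K), beside 28.7% over all genes. In the comparison of TAL1 + AKT(E17K) with TAL1 the shares over all genes were 24.0% higher and 20.7% lower. There 5 of the 20 were higher (Mcm7, Gins2, Pola1, Pole and Rfc4), near that share, and 2, Mcm4 and Rrm2, were lower. Of these 5, Gins2 (67.3%), Rfc4 (12.7%) and Mcm7 (12.6%) overlap other genes' exons by more than 10% and are uncertain. Whether the 2 counts differ was tested only gene by gene, and none of these genes passed the test of the difference. Of 21 mitotic genes, 5 were higher (Mki67, Ccnb1, Plk1, Kif20a and Cdc20) and 3 lower (Cdk1, Aurkb and Cenpf), with a median of 0.08 that became -0.21 with scaling by library size and -0.13 on genes with no exon overlap. With 13 of the 21 not called, the called share lay below the 63.4% over all genes. The median was 0.40 with AKT(E17K) against empty vector and -0.33 with TAL1 + AKT(E17K) against TAL1. Cenpf lost its call in 9 of 12 leave-one-out fits, Cdk1 with an additive TAL1 term (adjusted p = 0.053) and Mki67 with scaling by library size (adjusted p = 0.0846). Ccnb1, cyclin B1, had 1.07 ± 0.17, Aurkb, the Aurora B kinase, -1.37 ± 0.25, and Top2a, a topoisomerase, 0.31 ± 0.15 without passing the test. Of 20 clustered histone genes 14 were higher and none lower (10 of 13 higher on genes with no exon overlap), but their near-identical copies make these counts uncertain.

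The D cyclins moved apart from each other. Ccnd1, cyclin D1, was at 215, 253 and 171 CPM in AKT(E17K) mice and 50.9, 5.47 and 98.0 in TAL1 + AKT(E17K) mice, against 1.09 to 5.09 in the mice without AKT(E17K). Ccnd2, cyclin D2, was at 57.9, 44.4 and 103 CPM in AKT(E17K) mice and 51.7, 6.25 and 149 in TAL1 + AKT(E17K) mice. It was at 749, 859.6 and 616 in empty-vector mice and 143, 171 and 341 in TAL1 mice. Ccnd1 was higher without overlap, and Ccnd2 was lower, with the arms overlapping only through the TAL1 labelled groups. Exons of Ccnd1 overlap another gene by 23.4%, so its higher level is uncertain. For Ccnd1 mouse m117, at 5.47 CPM, lay just above the highest library without AKT(E17K), at 5.09 CPM. Mouse m117 had the lowest level of both genes in its arm. Ccnd3, cyclin D3, had 1.09 ± 0.32 with overlap. Of 12 tested D cyclins, their kinases and inhibitors, 6 were higher and 4 (Ccnd2, Cdkn1b, Cdkn2d and Rb1) lower. The shares over all genes were 32.8% higher and 30.6% lower. The median was 0.86, and -0.69 on the 4 genes with no exon overlap.

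NOTCH1 and its targets gave some of the largest differences. Notch1 (ENSMUSG00000026923, chromosome 2, 26457903 to 26516663), the receptor that commits cells to the T lineage, was at 463, 702 and 646 CPM in AKT(E17K) mice and 509, 1080.1 and 580.0 in TAL1 + AKT(E17K) mice. It was at 7.09, 10.5 and 12.0 in empty-vector mice and 7.80, 11.3 and 9.73 in TAL1 mice. The lowest AKT(E17K) library thus lay far above the highest of the others, with a log2 fold change of 6.09 ± 0.25 (edgeR, adjusted p = 3.64e-10). Exons of Notch1 overlap another gene by 9.8%. Of 15 NOTCH1 targets tested, 11 were higher and 2 lower (median 2.25), and on the 10 with no exon overlap 6 were higher and 2 lower (median 1.62).

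Several targets were higher as well, most of them genes without exon overlap. Dtx1, encoding the ubiquitin ligase Deltex, was at 245, 282 and 278 CPM in AKT(E17K) mice and 488, 1142 and 370.1 in TAL1 + AKT(E17K) mice. It was at 29.1, 34.2 and 26.5 in empty-vector mice and 9.05, 26.8 and 19.8 in TAL1 mice, a log2 fold change of 4.16 ± 0.31. Heyl, a repressor of the same family as Hes1, was at 27.9, 13.8 and 19.3 CPM, 30.3, 123 and 55.5 CPM, 2.91, 0.283 and 2.58 CPM and 0, 0 and 0.199 CPM in the same order of groups. No library of 1 arm overlapped the other for either gene. Ptcra, the pre-T cell receptor alpha chain, lay at 20.6 to 37.5 CPM (median 25.9) against 5.86 to 11.3 CPM (median 6.82). Hes1, the classic NOTCH1 target, was higher with overlap, at 1.24 ± 0.47 (adjusted p = 0.0331). Notch3, itself a target, had 2.75 ± 0.27 with no overlap, at an exon overlap of 6.0%.

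Il2ra, the interleukin-2 receptor alpha chain CD25 of early thymocytes, passed the test in 1 of the 2 settings. It was at 43.1, 70.4 and 49.8 CPM in AKT(E17K) mice and 565, 1469 and 342 in TAL1 + AKT(E17K) mice, against 59.1, 30.5 and 21.6 in empty-vector mice and 15.8, 86.0 and 49.8 in TAL1 mice. The log2 difference was 0.53 ± 0.60 against empty vector (adjusted p = 0.471) and 3.97 ± 0.63 against TAL1 (edgeR, adjusted p = 0.000208). The test of the difference between these gave an adjusted p of 0.149. The 2 lower genes of the NOTCH1 list were Tcf7 and Il7r. Tcf7, encoding the T lineage factor TCF1, was at 203, 229 and 268 CPM in AKT(E17K) mice and 289, 357 and 248 in TAL1 + AKT(E17K) mice. It was at 1474, 1441 and 1354 in empty-vector mice and 1758, 1671 and 1688 in TAL1 mice, and so lower in every AKT(E17K) library. Of 13 tested early thymocyte genes, several shared with the NOTCH1 list, 7 were higher and 1, the stem cell factor receptor Kit, was lower (median 1.64). On genes with no exon overlap 5 of 9 were higher and 1 lower.

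**Figure D4:**
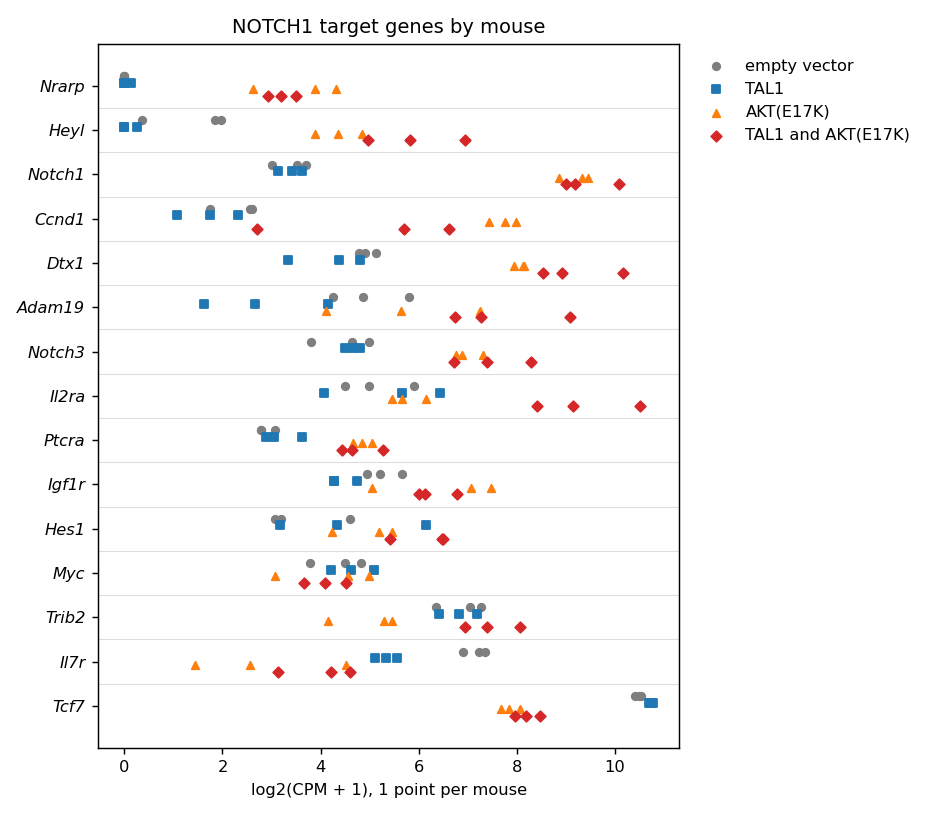
Level of Notch1 and NOTCH1 target genes in each library, as log2(CPM + 1) on the horizontal axis, with 1 point per mouse and groups told apart by colour and marker. Notch1 spans 463 to 1080.1 CPM with AKT(E17K) and 7.09 to 12.0 CPM without, and Tcf7 lies the other way, at 203 to 357 against 1354 to 1758 CPM.

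T lineage commitment factors and genes of later thymocyte stages were mostly lower. Of 20 T lineage factors, 13 were lower and 2, Notch1 and Runx1, higher (median -1.07), and on genes with no exon overlap 6 of 10 were lower and none higher. Runx1 lost its call with scaling by library size (edgeR, adjusted p = 0.26) and without mouse m116 (adjusted p = 0.0584). Id3, an inhibitor of E proteins induced by T cell receptor signals, lay at 1.15 to 6.74 CPM (median 5.85) against 159 to 313 CPM (median 247). Tox, needed for the CD4 lineage, lay at 1.06 to 25.7 CPM (median 8.06) against 175 to 314.8 CPM (median 254), and Ets1, a broad lymphoid factor, at 129 to 376 CPM (median 311.6) against 781 to 1074 CPM (median 907). Gata3 (-0.11 ± 0.14) and Lef1 (0.07 ± 0.15) were not called. Of 11 tested genes of the TAL1 complex and its leukaemia circuit, 5 were lower and 1, Runx1, was higher. The shares over all genes were 30.6% lower and 32.8% higher. On genes with no exon overlap 2 of 6 were lower and none higher, in a fit that called 1923 of 6408 genes lower. Ldb1, the bridging protein of the complex, had -3.38 ± 0.17 with no overlap. Of 18 genes of the double-positive stage, 16 were lower and 2, Endou and Rmnd1, were higher (median -1.24, and 6 of 9 lower on genes with no exon overlap). Rag1, of the recombinase that joins receptor segments, lay at 655 to 1541 CPM (median 1415) against 2359 to 4156 CPM (median 3328). Cd4 had -1.30 ± 0.28 and Cd8a -0.65 ± 0.24, and for both the arms overlapped.

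Mature T cell genes had the lowest group median, at -2.75 with 20 of 22 lower and 1 higher, and at -2.83 with 16 of 18 lower on genes with no exon overlap. Cd69, an early activation marker of selected thymocytes, lay at 0 to 4.66 CPM (median 0) against 12.9 to 47.2 CPM (median 25.7). Cd5, which tracks receptor signal strength, lay at 0 to 16.3 CPM (median 2.79) against 83.5 to 183 CPM (median 109). Gimap6, 1 of a family of lymphocyte survival genes whose members resemble each other, lay at 4.62 to 45.5 CPM (median 10.2) against 114 to 256 CPM (median 169). Ccr4 was the higher one, at 0.87 ± 0.31 with overlap. It lost its call in several alternatives, scaling by library size among them (edgeR, adjusted p = 0.0913). With AKT(E17K) against empty vector 20 were lower, with a median of -4.50, and with TAL1 + AKT(E17K) against TAL1 11 were, with a median of -1.34. Of 24 genes of T cell receptor signalling, 15 were lower and 1, Csk, was higher (median -0.84), and on genes with no exon overlap 9 of 16 were lower and 2 higher. Rasgrp1, an activator of RAS below the receptor, had -3.52 ± 0.45 with no overlap. The chain genes Cd3d (0.18 ± 0.11) and Cd3e (-0.04 ± 0.11) and the kinase Zap70 (0.08 ± 0.25) were not called, whereas the chain gene Cd3g was lower, at -1.62.

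Immediate early genes, which respond within minutes to receptor signals or to handling, were lower. With the heat shock genes they numbered 22, of which 16 were lower and 2 higher (median -2.70, and 10 of 15 lower on genes with no exon overlap). Nr4a1, encoding the orphan receptor NUR77, had 2 counts in all 6 AKT(E17K) libraries together and 2444 in the others. Fos lay at 0 to 8.17 CPM (median 1.13) against 24.0 to 123.6 CPM (median 43.3), and Egr1 at 3.46 to 23.5 CPM (median 11.2) against 62.6 to 183 CPM (median 134). The heat shock gene Hspa1b lay at 0 to 8.17 CPM (median 0.744) against 28.6 to 334 CPM (median 50.1). The chaperones Hsp90aa1 (2.42 ± 0.26) and Hspa8 (1.09 ± 0.20) were the 2 higher ones. How tissue was handled in each experiment was not given in the sources used here, and its part in these genes was not tested.

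Interferon genes were lower in part. Of 21, 12 were lower and 1 higher, with a median of -1.36, and on genes with no exon overlap 8 of 15 were lower. With AKT(E17K) against empty vector 12 were lower, beside 25.7% over all genes. With TAL1 + AKT(E17K) against TAL1 5 were lower, near the 20.7% over all genes. The summed level of the interferon genes was 779 to 1185 CPM in empty-vector mice and 308 to 509 CPM in TAL1 mice. The latter lay within the 270.0 to 582 CPM of the AKT(E17K) arms. Isg20, an antiviral nuclease, lay at 0.577 to 6.71 CPM (median 3.17) against 10.9 to 39.0 CPM (median 20.1), and Ifih1, the RNA sensor MDA5, at 0.782 to 8.12 CPM (median 1.90) against 10.8 to 32.4 CPM (median 21.2). Stat2, of the interferon signalling complex, had -0.97 ± 0.14 with no overlap. Bst2, encoding tetherin, was the higher one, at 2.57 ± 0.34. Without mouse m121 18 of 22 tested were lower. Of 15 genes of antigen presentation on MHC class I, 6 were lower and 4 (Psmb8, Psmb10, Pdia3 and Canx) higher, against 30.6% lower and 32.8% higher over all genes. On genes with no exon overlap 3 of 7 were lower and 4 higher, with a median of 0.53 against -0.04 over the 15. Psmb8 and Pdia3 lost their calls with scaling by library size (adjusted p = 0.157 and 0.277). H2-D1 had -2.16 ± 0.37 and Tap2, a peptide transporter subunit, -4.80 ± 0.28, whereas Psmb10 had 0.91 ± 0.19 and B2m, the shared light chain, 0.54 ± 0.25 without passing the test. Class I genes resemble each other, so their split of reads is uncertain.

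Bcl2, the survival factor of mature thymocytes, lay at 2.31 to 12.1 CPM (median 5.49) against 124.2 to 380.2 CPM (median 243), a log2 fold change of -5.21 ± 0.24 (edgeR, adjusted p = 8.87e-10). Mcl1, the survival factor needed at all stages, lay at 112 to 239.8 CPM (median 216) against 475 to 666 CPM (median 551). Among the death genes, Bbc3, encoding PUMA, had -1.77 ± 0.19, and Bax had 2.79 ± 0.34 at an exon overlap of 12.2%. In all, 5 of 13 tested BCL2 family genes were higher (Bax, Bak1, Bad, Bid and Bik) and 6 lower, against 32.8% higher and 30.6% lower over all genes. Of the higher ones, Bak1 (25.5%), Bad (20.5%) and Bid (17.7%) also overlap other genes' exons, and on genes with no exon overlap 1, Bik, was higher and 4 of 7 lower (median -1.0). Of 18 p53 targets 5 (Cdkn1a, Bax, Zmat3, Aen and Ei24) were higher and 9 lower (median -0.57), beside the same shares over all genes. On genes with no exon overlap 3 were higher and 9 of 15 lower. Cdkn1a, encoding p21, had 2.24 ± 0.45, Aen, a nuclease, 1.27 ± 0.21, Gtse1 -3.37 ± 0.34 and the death receptor gene Fas -3.03 ± 0.43, all with no overlap. Trp53 itself, the p53 gene, had -1.03 ± 0.15, also with no overlap.

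The 12 lower genes with the largest log2 fold changes among named, well-counted genes were Nr4a1, Tdrp, Dgkg, Fam134b, Inpp4b, Cd69, Nr4a3, Arap2, Tes, St6gal1, Hook1 and Gpr174. Arap2, which acts on small GTPases and binds a PI3K product, lay at 0.389 to 12.0 CPM (median 2.51) against 220.0 to 406 CPM (median 334), with 59 counts against 11719. Dgkg, a diacylglycerol kinase, had 8 counts against 2881. Nr4a1 (2 counts against 2444), Tdrp (1 against 948), Fam134b (3 against 1294) and Nr4a3 (3 against 939) were at or under 3 counts in the AKT(E17K) arms, too few for a fold change. The same rule gave 12 higher genes, among them Fstl3, Tomm6, Nme2, Wdr38, Rbm42, Mrps34, Nox1, Grin3b, Dsg2, Shisa3 and Sap25. All 12 overlap exons of another gene, by 2.9% in Shisa3 to 84.2% in Tomm6, and in the table without AKT(E17K) they were at or near 0. Nme2, a nucleoside diphosphate kinase of nearly all cells whose exons overlap by 48.9%, lay at 0 to 0.565 CPM there and at 381 to 1035 CPM in the AKT(E17K) table. A level near 0 of such a gene is uncertain.

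The same rule on genes with no exon overlap, a choice made after the data were seen, named other higher genes. Mt1, a metal-binding metallothionein, was at 903, 681 and 354 CPM in AKT(E17K) mice and 40.1, 7.04 and 212 in TAL1 + AKT(E17K) mice, against at most 0.546 in the others. Mnda lay at 33.3 to 329 CPM (median 103) against 0 to 0.848 CPM (median 0.416). Nkd1, an inhibitor of WNT signalling, lay at 17.9 to 70.3 CPM (median 48.1) against 0 to 0.497 CPM (median 0.338), and Fstl4 at 9.89 to 94.1 CPM (median 37.9) against 0 to 1.46 CPM (median 0.0740). Mt1 was lowest in mouse m117, still above every library without AKT(E17K). Wdr89, Fam177a, Slc35e3 and Cpsf4l were also on this list, Wdr89 at 1461 to 2699 CPM against 3.46 to 6.06 CPM. Cd5l, Sparc, Saa3 and Gpnmb were on it too, and mouse m121 had the highest level of each. Gpnmb was at 153 CPM in mouse m121 and at most 21 CPM in the other 5 AKT(E17K) libraries. On the lower side Pfn1, which encodes the actin-binding protein profilin, lay at 2.31 to 8.83 CPM (median 6.26) against 155 to 389 CPM (median 274), and Pacsin1 and Slc6a19 joined it. Gaps as wide as those of Wdr89 and Pfn1 were thus not confined to genes with exon overlap. The part of read counting in such gaps was not tested, so these values are uncertain too.

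Some genes were counted in 1 table only. Counts in the AKT(E17K) table alone were held by 1561 joined genes, of which 71 exceeded 5 CPM in all 6 libraries. Counts in the other table alone were held by 1006 genes, of which 3 did so. The highest in the AKT(E17K) table alone were Ilk (mean 174 CPM), Cers1 (148), Gdf1 (146), Exoc3l4 (98.2), Akap2 (85.7) and Zbed6 (83.9). Ilk encodes a scaffold kinase found in nearly all cells, and 89.7% of its exon bases overlap other genes, so its 0 in the other table is uncertain. The highest in the other table alone were Pip5k1b (20.7 CPM), Cd40lg (19.4), Zcchc12 (12.9), Arhgap24 (11.6), Trat1 (11.3) and Hs3st3b1 (9.0). None of these overlaps another gene. Cd40lg encodes the helper T cell ligand of CD40, and Trat1 an adaptor of the T cell receptor complex. Each is listed at 0 in all 6 AKT(E17K) libraries.

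Markers of other cell types were summed per library, and their part in the results above was not tested. Myeloid markers, 7 of 12 tested higher and none lower, summed to 101 to 1866 CPM with AKT(E17K) (median 264) and to 17.2 to 515 CPM without (median 30.5). Mouse m121 held the highest sum and TAL1 mouse M318 the highest of the others. The macrophage gene C1qb was at 431 CPM in mouse m121, and the macrophage and granulocyte gene Lyz2 at 686 CPM. Stromal markers summed to 13.8 to 876 CPM (median 36.8) against 1.79 to 5.46 CPM, with all 5 tested higher, and adipocyte markers to 8.29 to 499.8 CPM against 0.596 to 5.63 CPM. Both maxima were again mouse m121. The stromal genes Col3a1 and Dcn and the epithelial genes Foxn1, Krt5 and Krt14 were at 0 in all 6 libraries without AKT(E17K). Of the 14 thymic epithelial markers, however, 4 were tested and none was called higher or lower. The epithelial sums, given below, overlapped between the arms. Erythroid markers, 7 of 8 higher and 1 lower, summed to 354 to 1272 CPM against 85.6 to 128 CPM without overlap, and they include haemoglobin genes with near-identical copies.

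The other marker lists were summed in the same way. Dendritic cell markers summed to 253 to 751 CPM against 1040.4 to 1907 CPM. Most of the sum without AKT(E17K) came from Ccr9, which thymocytes also express. Ccr9 lay at 797 to 1706 CPM there and at 8.48 to 185 CPM with AKT(E17K). Of 11 tested dendritic markers 3 were higher (Bst2, H2-Ab1 and Cd74) and 3 lower (Ccr9, Zbtb46 and Xcr1), with a median log2 fold change of 0.84. Neither count exceeded the shares over all genes, 32.8% higher and 30.6% lower. H2-Ab1, Cd74 and Xcr1 lost the call in several alternatives. B cell markers summed to 5.70 to 60.7 CPM against 19.0 to 30.4 CPM, and natural killer and innate T cell markers to 66.1 to 179 CPM against 126 to 297 CPM. Thymic epithelial markers summed to 41.0 to 115 CPM against 35.5 to 84.8 CPM, and endothelial markers to 64.6 to 285 CPM against 120 to 211 CPM. Megakaryocyte and mast cell markers summed to 0.518 to 51.9 CPM against 2.35 to 7.55 CPM. All of these but the dendritic list overlapped between the arms. The defining markers Gp9, Ppbp, Fcer1a and Ms4a2 were at 0 in all 12 libraries. Without mouse m121, 6958 genes were called over all genes tested, against 6942 with it. Without it 6 of 13 tested myeloid markers were higher (median log2 fold change 1.29 against 2.78 with it), as were all 5 stromal markers (4.43 against 6.27).

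Whether AKT(E17K) went with the same difference in both TAL1 settings was tested by the difference of the differences. An offset that multiplies a gene equally in all libraries of a table cancels here. Of 10947 genes, 18 passed (0.164%), all with a more positive difference under the TAL1 label, and 1189 had an unadjusted p under 0.05. Add3, encoding the membrane skeleton protein adducin 3, was at 6.71, 5.77 and 7.39 CPM in AKT(E17K) mice against 152, 214 and 185 in empty-vector mice. It was at 24.5, 23.5 and 20.7 CPM in TAL1 + AKT(E17K) mice against 81.2, 66.6 and 86.3 in TAL1 mice. It was lower with AKT(E17K) in both settings, with log2 differences of -4.76 ± 0.22 and -1.76 ± 0.19, and these differed by 3.0 ± 0.29 (edgeR, adjusted p = 0.00074). Klf2, described above, had a difference of 3.59 ± 0.43 (adjusted p = 0.00575). Add3 and Klf2 alone stayed under an adjusted p of 0.05 in all 20 alternatives run, with highest values of 0.00538 and 0.0302.

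Of the other 16 genes, 14 were lower with AKT(E17K) against empty vector. Gimap4 was at 7.77, 4.04 and 5.12 CPM against 183, 205 and 168 CPM in the first setting and 27.6, 13.7 and 17.1 against 26.1, 18.7 and 65.1 CPM in the second. Cd2, an adhesion molecule of T cells, was at 0.353, 2.89 and 15.4 CPM against 299, 349.9 and 382, and at 111, 105 and 54.4 against 198, 151 and 232 CPM. In both genes the TAL1 mice already lay below the empty-vector mice. Agfg1, Anxa6 and Sidt1 were lower in the first setting and higher in the second, Agfg1 with log2 differences of -1.17 ± 0.33 and 1.75 ± 0.33. Abcb1a, a drug efflux pump, was at 1.41, 0.577 and 0.284 CPM against 3.09, 1.13 and 1.88 CPM, and at 15.9, 44.2 and 5.70 against 0, 0 and 0.0993 CPM. The TAL1 mice were at or near 0 for Abcb1a and Gm973, so their folds are not given. The same mice set the count. Without mouse m124 173 genes passed, without mouse m119 49, without mouse m122 3 and without mouse m121 11, and most other omissions left 2.

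**Figure D5:**
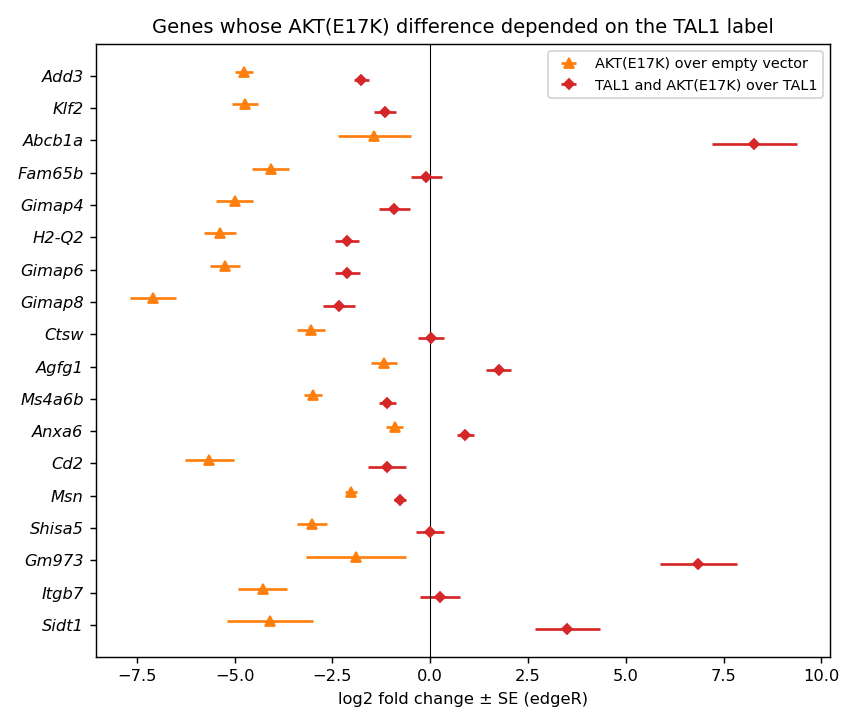
Log2 fold change (horizontal axis) of AKT(E17K) over empty vector (triangles) and of TAL1 + AKT(E17K) over TAL1 (diamonds) for the 18 genes whose differences differed, 1 gene per row, with bars of 1 standard error. In every row the diamond lies to the right of the triangle; Add3 lies at -4.76 and -1.76.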

How the data were processed

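Thymus RNA of 12 mice was analysed from tables of whole-number gene counts, not normalized, that the authors deposited. Per the submitters' processing notes reads passed through FastQC, HISAT2, SAMtools and HTSeq, with mm10 and GRCm38 as builds. Not given in the sources used here were versions, annotation, strand setting and the handling of reads with several matches. HTSeq summary lines (in the table without AKT(E17K), 29.8% to 33.0% of its total in no feature and 4.67% to 6.09% ambiguous) were left out. The 2 tables were joined on symbols unique in both and filtered with filterByExpr. Tests used edgeR 4.0.16 (R 4.3.3), with TMM scaling, 4 group means and the quasi-likelihood test, adjusted by the Benjamini-Hochberg method over all 10947 genes. DESeq2 1.42.0, other scalings, other filters, other designs and leaving out each mouse were alternatives. The biological coefficient of variation was 29.9% over the 12 mice, 37.7% in the AKT(E17K) arms and 20.8% in the others. P-values measure the spread between mice within a table only.

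The comparison, the 37 gene lists (638 genes) and the tests were chosen with earlier results of these data known. Genes are named by 5 rules. The first takes the 12 higher and 12 lower named protein-coding genes with the largest fold changes among called, non-overlapping genes with a mean of at least 20 CPM in the higher arm and counts in both tables. The others take up to 4 higher and 4 lower called members per list by adjusted p, the genes Akt1, Akt2 and Tal1, the 5 genes with the smallest p in the test of the difference, and up to 6 genes counted in 1 table. Members not called are named where a list is described, and further members were chosen after their values were seen. Promoters came from RefSeq on GRCm38.p6. Some genes these rules select are not reported here, though counts over lists and over all genes include them.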

Additional observations from a re-analysis of the deposited data

Results flagged for a closer look

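Summed marker levels were checked for a library far from the rest of its arm, a check that marks about 1 in 20 groups by chance. Mouse m121, labelled AKT(E17K), stood apart from the other 5 AKT(E17K)-arm libraries in 4 sums. These were the myeloid markers at 1866 CPM, the stromal markers at 876 CPM, the adipocyte markers at 499.8 CPM and the megakaryocyte and mast cell markers at 51.9 CPM. Mouse M318, labelled TAL1, stood apart in its arm with 515 CPM of myeloid markers. Mouse M311, with empty vector, stood apart with the lowest dendritic cell sum (1040.4 CPM) and the highest natural killer and innate T cell sum (297 CPM) and thymic epithelial sum (84.8 CPM).

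In 18 genes the log2 difference with AKT(E17K) was more positive under the TAL1 label than without it by the test of the difference (edgeR quasi-likelihood test, adjusted p from 0.00074 to 0.0436). The gap was 3.0 ± 0.29 for Add3 and 3.59 ± 0.43 for Klf2. In the immune GTPase family it was 4.08 ± 0.62 for Gimap4, 3.13 ± 0.49 for Gimap6 and 4.77 ± 0.75 for Gimap8, whose sequences resemble each other. Among surface and adhesion genes it was 4.54 ± 0.77 for Cd2, 4.53 ± 0.80 for Itgb7, 1.89 ± 0.30 for Ms4a6b and 1.25 ± 0.21 for Msn. The other genes were Fam65b (3.99 ± 0.60), H2-Q2 (3.24 ± 0.50), Ctsw (3.06 ± 0.48), Agfg1 (2.92 ± 0.46), Anxa6 (1.81 ± 0.30), Shisa5 (3.01 ± 0.52) and Sidt1 (7.59 ± 1.36). Abcb1a (9.71 ± 1.42) and Gm973 (8.75 ± 1.52) rest on TAL1 mice at or near 0, so the size of their gap depends on the prior count.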

How the results depend on the processing

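No paired analysis was possible because the mouse numbers are not shared between groups. The count of genes called between the arms lay between 5743 and 7355 under every alternative except the fit on genes with no exon overlap, an alternative added after the data were seen, where fewer genes are tested and 3847 were called (1924 higher, 1923 lower). Leaving out 1 mouse gave 6615 to 7231. The same fit gave 3235 genes for AKT(E17K) against empty vector, 2494 for TAL1 + AKT(E17K) against TAL1 and 2237 without overlap between the arms. In the fit on all genes these counts were 5957, 4892 and 4327, and leaving out 1 mouse there gave 5112 to 6151, 3999 to 5324 and 4469 to 4861. Scaling by library size called 7150 genes, 39.6% of them higher against 51.7% with TMM factors. The test of the difference was the least stable, with 18 genes as reported, 2 to 173 when 1 mouse was left out, 175 with the DESeq2 Wald test (123 higher, 52 lower), 58 with no filter on low counts and 11 with no exon overlap. The cause was not tested. Of 206 called named genes, 16 lost the call under at least 1 alternative. Of 743 list medians 59 moved by more than the spread between mice, and the medians of the Mitosis, D cyclin, MHC class I, BCL2 family, B cell and thymic epithelial lists changed sign under some alternative. At these depths 3 counts stand for 0.826 to 1.46 CPM in the AKT(E17K) libraries, and lower levels were not resolved there.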
